A study of Homo sapiens with 31 samples.

Results

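The circRNAs described here came from 7 genes for long non-coding RNAs (lncRNAs) of which 6 carry the symbols of antisense or divergent transcripts: STX18-AS1, RIPK2-DT, SEPTIN7-DT, VLDLR-AS1, ZBED3-AS1 and UBA6-DT. The seventh gene, DGCR5, was grouped with them but has no such symbol. The 7 genes were taken as a fixed list of names, chosen with earlier results of these data known. Another 93 genes with -AS or -DT symbols gave back-splice reads and are not in the list. By back-splice reads the 7 ranked from 3 to 11 among 276 lncRNA genes. Every circRNA whose back-splice is defined on a transcript of one of these genes was taken, which gave 20 of the 55371 circRNAs listed, with 1550 of 1029205 back-splice reads (0.151%). Of these 20, 14 reached the 10 summed reads needed for testing and 6 did not.

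A circRNA forms when the donor splice site at the end of an exon is joined backwards to the acceptor at the start of the same or an earlier exon, and a read across that back-splice is its signature. A divergent transcript (-DT) starts close to the start of a coding gene and runs the other way, often from a shared promoter region, while an antisense transcript (-AS) runs opposite to a coding gene and may overlap it. Many lncRNAs of these kinds are spliced, so that their internal exons can be circularised like those of coding genes.

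H9 cells, an established human embryonic stem (ES) cell line, were differentiated towards retinal organoids. Ribodepleted total RNA was sequenced in 5 conditions of 3 libraries each. These were undifferentiated cells at day 0 and differentiating cultures at day 45 and day 90, harvested whole, with no picking of embryoid bodies. The cultures were either untreated or given IGF-1, a growth factor supplied at 5 ng/ml up to day 37 and at 10 ng/ml afterwards. All samples came from this single line, and in whole cultures fewer cells of a type and less RNA per cell cannot be told apart. The study describes its replicates as separate cultures, so p-values measure the spread between cultures of 1 line.

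Libraries held 14992 to 17929 back-splice reads at day 0 and 42858 to 108946 later, and RNA integrity numbers were 9.8 to 10.0 at day 0 and 7.1 to 9.1 later. Back-splice reads as a whole were 6.33-fold higher per sequenced read at untreated day 45 than at day 0. Changes are therefore given on 2 scales, per sequenced read and per back-splice read. The level of a gene is its back-splice reads per 100000000 sequenced reads, unless said otherwise. The part of RNA integrity in these values was not tested, and integrity and day cannot be told apart here. Of the stem cell markers on a fixed list, 4 of 10 gave back-splice reads at day 0 (a level of 0.801 to 1.43 for the list) none at day 45, and 1 untreated and 2 with IGF-1 at day 90 (up to 1.44 and 0.756), while 2 of 11 eye field and neural retina markers did so at untreated day 45 and none at day 0. Levels of linear transcripts were not analysed here.

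In the annotation, STX18-AS1 (ENSG00000247708.8) lies at chr4:4543858-4789086 and UBA6-DT (ENSG00000248049.8) at chr4:68566927-68946670, ZBED3-AS1 (ENSG00000250802.7) at chr5:76382513-76462734 and DGCR5 (ENSG00000273032.3) at chr22:18957952-19018755, all on the plus strand. SEPTIN7-DT (ENSG00000228878.10) at chr7:35791466-35840559 and VLDLR-AS1 (ENSG00000236404.12) at chr9:2421597-2622457 are on the minus strand. It placed 6 of the 7 genes head to head with a coding gene on the other strand. STX18-AS1 started 215 bases from the start of STX18, which encodes a syntaxin of the endoplasmic reticulum. RIPK2-DT started 6 bases from RIPK2, a kinase of innate immune signalling, and SEPTIN7-DT 17 bases from SEPTIN7, a cytoskeletal GTPase. UBA6-DT lay 54 bases from UBA6, which encodes a ubiquitin-activating enzyme, without overlapping it. ZBED3-AS1 lay 597 bases from ZBED3, whose protein binds Axin in Wnt signalling, and VLDLR-AS1 1275 bases from VLDLR, a lipoprotein and reelin receptor. DGCR5, named for the DiGeorge critical region of chromosome 22, had no coding gene on the other strand that it overlapped or whose start lay within 1000 bases, so that neither description was borne out for it by this annotation. No member circle overlapped an annotated exon of the opposite strand, except UBA6-DT circle 1, which overlapped an exon of ENSG00000270228.

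Circles are numbered within a gene by their summed reads. The 30 bases around the back-splice are shown for the circles on which the results turn, to let each junction be recognised in other data. They are given 5′ to 3′ on the strand of the gene (GRCh37, the coordinates of hg19). The capitals mark the 8 bases on either side of the junction that a read had to cover to be counted, the first 8 from the end of the donor exon and the last 8 from the start of the acceptor exon.
STX18-AS1 circle 1, chr4:4650704-4651269, plus strand: atcttctATGCAAGGATGCAGAGattcaga
SEPTIN7-DT circle 1, chr7:35820819-35833632, minus strand: ctagaagGCAAATTGGAGGTCCTggaacca
SEPTIN7-DT circle 2, chr7:35797789-35833632, minus strand: tggctctGCAACTTAGAGGTCCTggaacca
VLDLR-AS1 circle 1, chr9:2493075-2494302, minus strand: gctttttGGCCCTAGACGGAGTTtcactgt
VLDLR-AS1 circle 2, chr9:2521903-2539552, minus strand: agatcaaCGCAGAAGGCTCCAAGcttgata
ZBED3-AS1 circle 1, chr5:76394480-76396216, plus strand: tgcttttGTGTAAAGAACACCAGagactgg
UBA6-DT circle 1, chr4:68586140-68595888, plus strand: acagccaGCAGAACTAAATCCTGgctgaca
UBA6-DT circle 2, chr4:68594258-68598063, plus strand: ttaatgaATATTAAAGAGAAGGGaaaatgt
UBA6-DT circle 3, chr4:68594258-68595888, plus strand: acagccaGCAGAACTGAGAAGGGaaaatgt
DGCR5 circle 1, chr22:18975270-18975708, plus strand: agtgctcATTGGAGGTTCTTGCTgtcgaca

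The paired sequences show how circles of 1 gene share splice sites. SEPTIN7-DT circles 1 and 2 share the acceptor and differ in the donor. UBA6-DT circle 3 takes its donor with circle 1 and its acceptor with circle 2. RIPK2-DT circles 1 and 2, whose sequences are not shown, also share their acceptor and differ by 1 exon.

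All 20 circles began and ended at annotated exon ends, which their definition by exons of a named transcript fixed in advance. None contained the first or the last exon of its transcript. The leading circles of the 7 genes held 2 or 3 exons and 229 to 874 bases of exon, behind upstream introns of 6463 to 104069 bases. The back-splice acceptor was exon 2 in 5 of these 7 and in 9 of the 14 testable member circles (64.3%), against 28.3% of all 12498 testable circRNAs and 43.0% of the 93 from lncRNA genes, given as a description. Circles of RIPK2-DT, SEPTIN7-DT and VLDLR-AS1 that share an exon 2 acceptor were counted separately. The sets were not matched by the number of exons per transcript. The exceptions among the leading circles were STX18-AS1, which joined exon 4 to exon 3, and VLDLR-AS1, which joined exon 9 to exon 8. The flanking dinucleotides were AG and GT in 19 of 20 circles, against 99.3% of all circRNAs. VLDLR-AS1 circle 2 was the exception, with AG and GC.

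Each end of the circles was compared with the whole genome as a run of 30 bases, since an end with copies elsewhere can draw reads from them. Both ends occurred once for 18 of the 20 circles. The acceptor end of VLDLR-AS1 circle 1 occurred 50 times, and its reads are uncertain for that reason. The acceptor end of the DGCR5 circle occurred 2 times, while its donor end occurred once, and the part of the other copy in its reads was not tested.

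**Figure D1:**
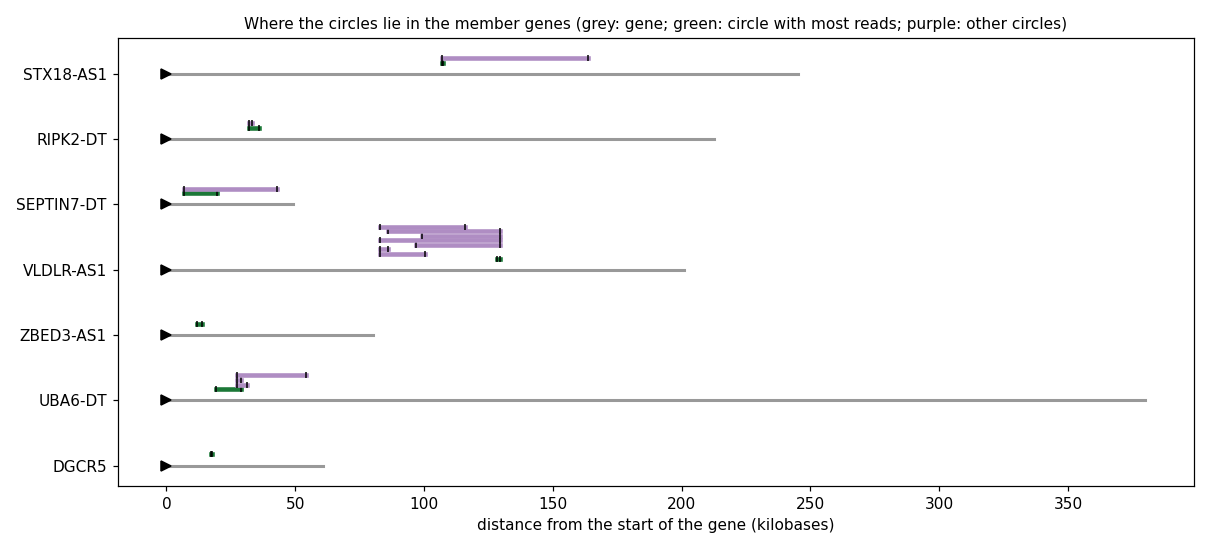
Position of the 20 circles in the 7 genes, with distance from the gene start in kilobases on the horizontal axis and 1 gene per row (grey line: gene, arrow: start and direction, green: circle with most reads, purple: other circles). All circles lie inside the genes, between 6927 and 128155 bases from the gene start at their nearer end, and the 8 circles of VLDLR-AS1 share a few end points.

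STX18-AS1 gave the most back-splice reads of the 7 genes, 593 in all, and was the third of 276 lncRNA genes by back-splice reads. Circle 1, of exons 3 and 4, held 591 of them, and circle 2 held 2, both in a single library. Its level was 6.41, 4.22 and 9.27 in the day 0 libraries and 40.6, 38.3 and 37.5 at untreated day 45. It was 45.4, 40.4 and 47.1 at day 45 with IGF-1, 14.4, 33.2 and 45.0 at untreated day 90, and 42.3, 16.1 and 19.9 at day 90 with IGF-1. Every later library was above every day 0 library (exact two-sided permutation test of 3 against 12 libraries, p = 0.0044, the smallest these numbers allow). All back-splice reads together separated in the same way, with the same p. Per back-splice read, 3 of the 12 later libraries lay above all of day 0 (same test, p = 0.778). The share of all genes that separate in this way is not given here. The day 45 libraries lay close together, whereas those of day 90 ran from 14.4 to 45.0.

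The level of STX18-AS1 rose at untreated day 45 by 2.53 on the log2 scale (SE 0.47, edgeR quasi-likelihood test, adjusted p = 4.26e-07), and the summed counts gave a ratio of 5.83 (95% counting interval 3.86 to 9.14). Per 100000 back-splice reads the same libraries read 53.4, 39.7 and 72.5 at day 0 and 41.3, 59.0 and 61.6 at day 45. On that scale the groups overlapped, and the ratio was 0.945 (0.625 to 1.48). The coding neighbour STX18 gave 155 reads over 7 circRNAs, 2 of them at day 0 and 45 at untreated day 45, a log2 change of 4.39 (SE 0.82, adjusted p = 6.07e-07) per sequenced read and of 1.81 (SE 0.95, adjusted p = 0.248) per back-splice read.

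RIPK2-DT (ENSG00000251136.11, chr8:90557653-90770040, minus strand) gave 383 reads. Of these, 261 came from circle 1 (chr8:90734243-90737869, exons 2 to 4) and 122 from circle 2 (chr8:90736857-90737869, exons 2 and 3). Its level was 0.801, 0.703 and 7.85 at day 0, where replicate 3 held 11 of the 13 reads. At untreated day 45 it was 21.7, 21.7 and 32.1, at day 45 with IGF-1 18.9, 27.7 and 24.3, and at day 90 it ran from 9.38 to 31.0 over 6 libraries. The groups of day 0 and day 45 did not overlap. The change at day 45 was 2.96 on the log2 scale (SE 0.54, adjusted p = 2.6e-07), and 4.91 without day 0 replicate 3. Per back-splice read it was 0.42 (SE 0.50, adjusted p = 0.628), and without that library 2.39 (adjusted p = 0.0418). RIPK2 itself gave 2 back-splice reads in all libraries together.

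The circles of RIPK2-DT differ by exon 4, which only circle 1 contains. Circle 1 made up 62.4% of the gene's reads at untreated day 45 (95% Wilson interval 52.6 to 71.2), 67.0% with IGF-1 (56.9 to 75.8), 75.7% at untreated day 90 (64.8 to 84.0) and 72.1% with IGF-1 (62.8 to 79.8). At day 0 it made up 6 of 13 reads, or 46.2% (23.2 to 70.9). The intervals cover counting error only and overlap, and no difference in the share was tested.

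SEPTIN7-DT gave no read in any day 0 library, which allows a level of up to 0.737 over that group, taking 3 counts as the limit. Its 140 reads came from 12 of 12 later libraries, 119 from circle 1 (exons 2 and 3) and 21 from circle 2 (exons 2 to 4). The level was 19.9, 5.78 and 7.51 at untreated day 45, 14.2, 9.72 and 5.71 at day 45 with IGF-1, and 4.33 to 9.82 over the 6 libraries of day 90. At untreated day 45 the level was at least 14.1-fold higher than at day 0 per sequenced read (adjusted p = 2.51e-08, edgeR) and at least 2.28-fold higher per back-splice read (adjusted p = 0.0189). It was the only member gene called on the second scale, and there the call was lost without any 1 of the 3 day 0 libraries (adjusted p = 0.0702 to 0.0824) or without untreated day 45 replicate 1 (adjusted p = 0.0541). The bound per sequenced read was 9.05 without that day 45 library and 9.15 to 9.76 without any 1 day 0 library. SEPTIN7 gave no back-splice read.

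DGCR5 likewise gave no read at day 0, and 98 reads from its single circle of exons 2 and 3 in the 12 later libraries. Its level was 25.3, 4.34 and 3.41 at untreated day 45 and 15.1, 6.73 and 2.14 at day 45 with IGF-1. At day 90 it was 2.89, 3.61 and 3.92 untreated and 5.29, 4.52 and 1.37 with IGF-1. Replicate 1 stood highest at day 45 in both treatments, with 28 and 16 of the group totals of 39 and 28 reads, and the same replicate was highest in both for SEPTIN7-DT. Replicate numbers coincide with groups of sequencing quality at day 0 and day 45, so that replicate and quality group cannot be told apart there.

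The rise of DGCR5 at day 45 was at least 13.4-fold per sequenced read (adjusted p = 1.25e-07, edgeR) and at least 2.17-fold per back-splice read (adjusted p = 0.0526). Without untreated day 45 replicate 1 the bounds were 5.24 and 0.984, and without any 1 day 0 library 8.71 to 9.28 and 1.36 to 1.49. The rise per back-splice read was called without untreated day 45 replicate 2 (adjusted p = 0.0351) or 3 (0.0272), without any of 3 IGF-1 libraries (0.0389 to 0.0498), or with a term for the sequencing quality group (0.0377 or 0.0382, by the group given to the untreated day 90 libraries). Replicate libraries of the later conditions spread more for DGCR5 than counting error gives, with a chi-square of 6.83 per degree of freedom against a median of 2.55 over 1739 genes with 90 to 700 reads. STX18-AS1 had 5.59 and UBA6-DT 1.40.

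The DGCR5 circle also stood apart in its flanks. The 2000 bases on either side of each circle were searched for the longest exact match between one flank and the reverse complement of the other. Such inverted matches can pair in the precursor RNA and are a known feature of many circularised exons. The longest match of the DGCR5 circle had 94 bases, the longest of 12493 circRNAs, whose median was 17. Matches of at least 50 bases were found in 0.296% of all. The other testable member circles had matches of 10 to 23 bases.

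The downstream arm of the DGCR5 match is shown because no other circRNA carried one as long. It lies 506 bases beyond the donor site, at chr22:18976215-18976308 on the plus strand (GRCh37), and reads 5′ to 3′ as follows, in lower case throughout.
DGCR5 downstream arm: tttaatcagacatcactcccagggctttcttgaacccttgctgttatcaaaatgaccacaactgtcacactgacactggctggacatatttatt
Its reverse complement lies 16 bases before the acceptor site, at chr22:18975160-18975253, and these were the only 2 exact copies in the genome, both strands counted. A local alignment extended the copy to 276 bases, of which 92.8% were identical. The extended copy covers 224 bases of the upstream intron, the acceptor site and the first 40 bases of exon 2, which are part of the circle.

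**Figure D2:**
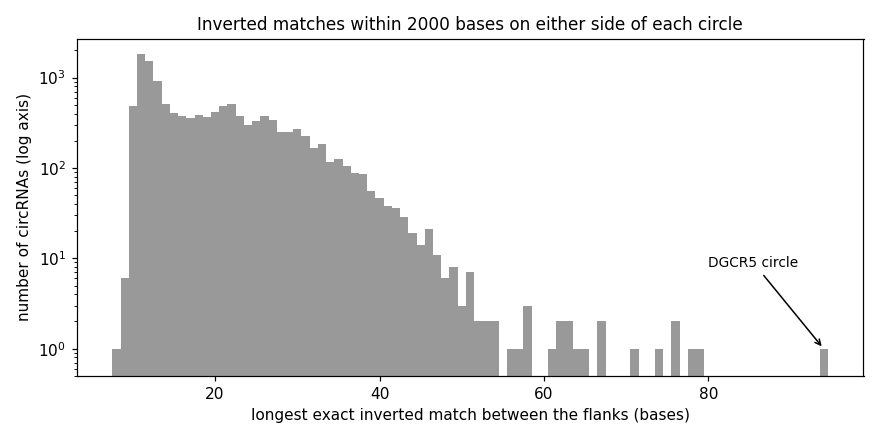
Longest exact inverted match between the flanks of each of 12493 circRNAs, in bases on the horizontal axis, with the number of circRNAs on a logarithmic vertical axis. The DGCR5 circle, at 94 bases, is alone at the right end, while the median is 17 bases.

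VLDLR-AS1 gave 125 reads from 8 circles, the most circles of any member gene, built from a few shared splice sites. Its level was 0, 1.41 and 1.43 at day 0 and 7.22, 5.78 and 6.82 at untreated day 45. At day 45 with IGF-1 it was 4.73, 6.73 and 20, and at day 90 it ran from 3.61 to 8.31 over 6 libraries. The groups of day 0 and day 45 did not overlap, and 1 IGF-1 library, replicate 3, was far above the rest. The ratio of day 45 to day 0 was 6.69 (95% counting interval 2.32 to 26.4), with a log2 change of 2.65 (SE 0.81, adjusted p = 0.0026). Per back-splice read the ratio was 1.08 (0.376 to 4.27).

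No circle of VLDLR-AS1 held most of the gene's reads. Circles 1 to 4 held 44, 33, 21 and 15 reads, and circles 5 to 8 held 5, 3, 3 and 1. Circle 2, with the GC donor, was found in 6 of the 15 libraries only, with 5 and 5 reads in untreated day 45 replicates 1 and 2, 11 in replicate 3 with IGF-1, 6 in untreated day 90 replicate 3, and 4 and 2 at day 90 with IGF-1. Circle 1, of exons 8 and 9, was found in 12 libraries at 1 to 7 reads.

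ZBED3-AS1 gave 113 reads from 1 circle of exons 2 and 3. At day 0 only replicate 3 held reads, 3 in all, a level of 2.14. At untreated day 45 the level was 7.22, 5.78 and 9.55, with IGF-1 it was 7.57, 12 and 4.99, and at day 90 it ran from 1.94 to 9.79. The lowest of these, at day 90 with IGF-1, was the only later library not above all of day 0. The ratio of untreated day 45 to day 0 was 10.3 (3.20 to 52.7), with an adjusted p of 0.000457 (edgeR), and per back-splice read it was 1.67 (0.519 to 8.54, adjusted p = 0.629). Without day 0 replicate 3, which held all day 0 reads, the level per sequenced read was at least 6.75-fold higher at day 45, and without day 0 replicate 1 or 2 the ratio was 7.14 or 6.70.

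UBA6-DT gave 98 reads from 4 circles. Each day 0 library held 1 read, all from circle 1, a level of 0.703 to 0.801, and untreated day 45 held 10.8, 5.06 and 8.19. With IGF-1 at day 45 the level was 4.73, 9.72 and 2.85, and at day 90 it ran from 3.43 to 7.56. All 12 later libraries were above day 0, as they were for all back-splice reads together. The ratio of untreated day 45 to day 0 was 10.6 (3.32 to 54.4, adjusted p = 0.000445, edgeR), and per back-splice read 1.72 (0.538 to 8.81, adjusted p = 0.61). Circle 2 was first seen at day 45, with 15 of 31 reads, and held 40.0% of the gene's later reads (95% Wilson interval 30.7 to 50.1), against 44.2% for circle 1 (34.6 to 54.2). UBA6 gave 37 reads over 15 circRNAs, with 2 at day 0 and 16 at untreated day 45 (log2 change 2.92, SE 1.11, adjusted p = 0.0166), and a change of 0.35 per back-splice read (SE 1.24, adjusted p = 0.886).

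**Figure D3:**
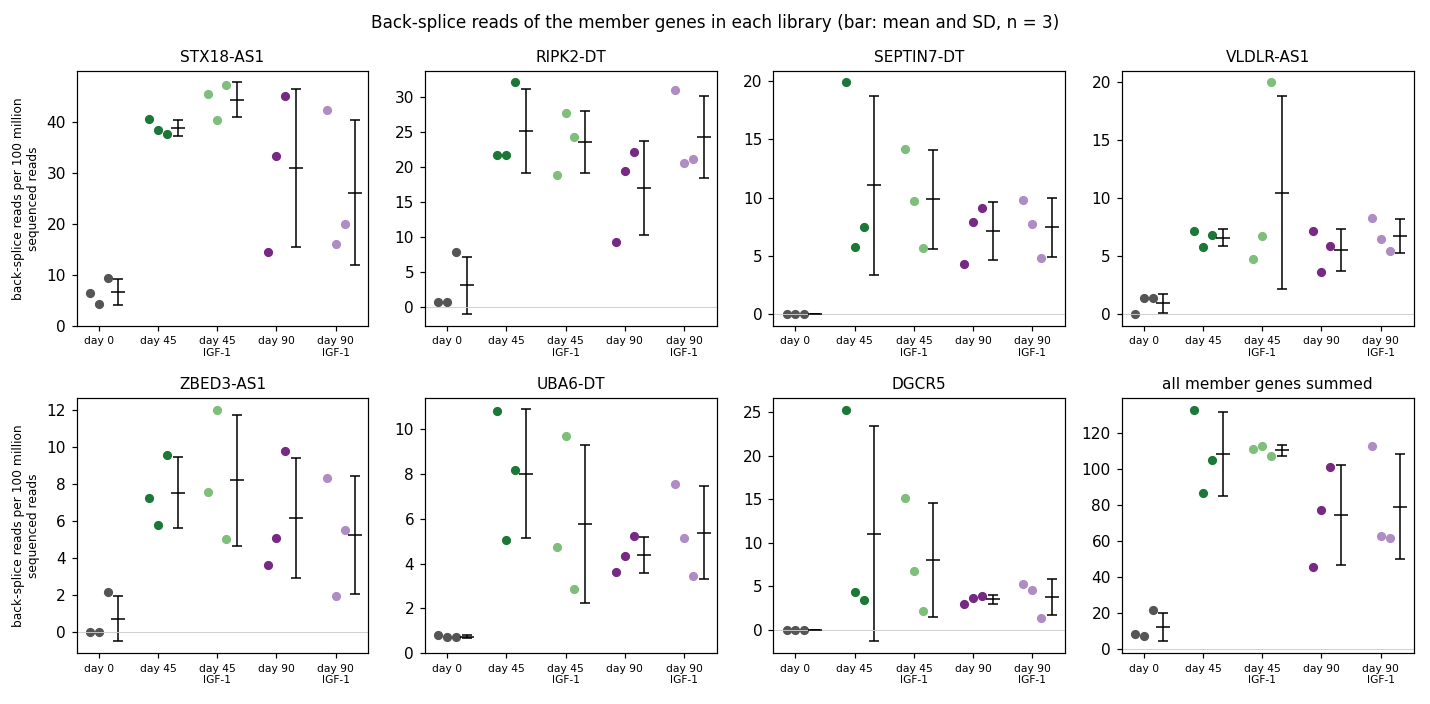
Back-splice reads of each member gene, and of all 7 summed, per 100000000 sequenced reads on the vertical axis in the 15 libraries, grouped by condition along the horizontal axis (points: libraries, black bar: mean and SD, n = 3). Day 0 lies lowest, except for ZBED3-AS1, where 1 library of day 90 with IGF-1 (1.94) is below day 0 replicate 3 (2.14), and replicate 1 stands above the others at day 45 for SEPTIN7-DT and DGCR5.

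**Figure D4:**
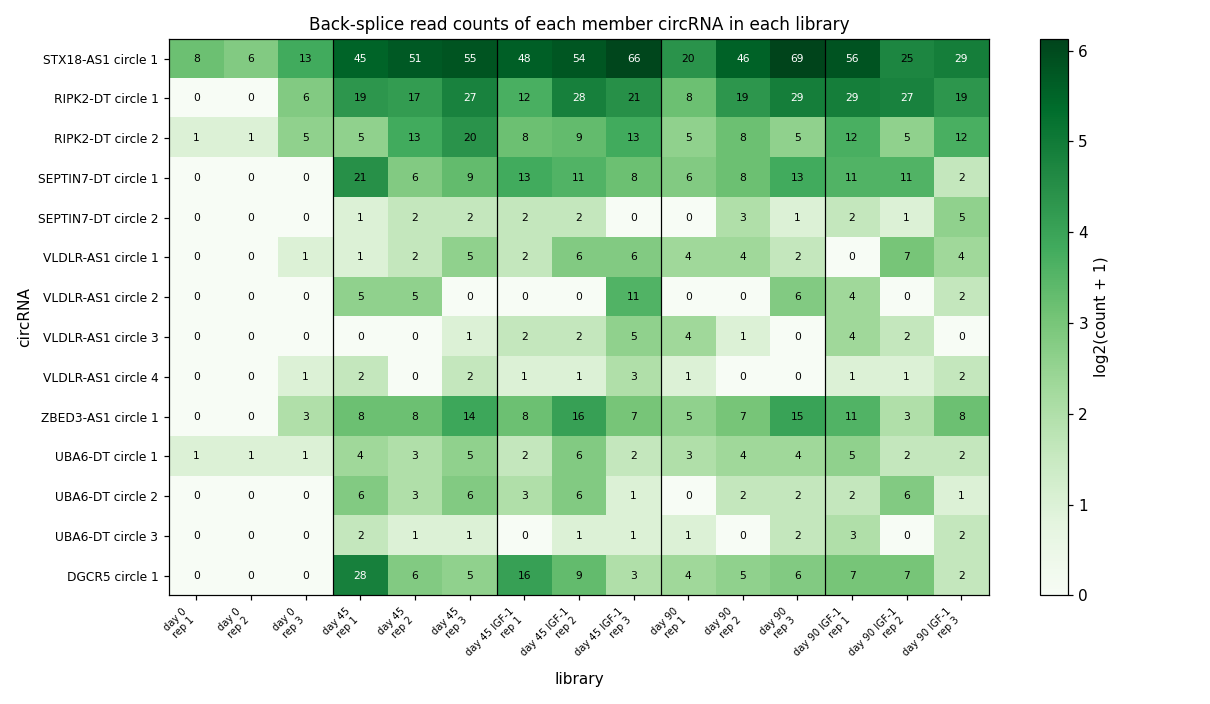
Read counts of each of the 14 testable member circles (rows) in each of the 15 libraries (columns), with the number written in the cell and log2(count + 1) as the shade. STX18-AS1 circle 1 fills its row, while the VLDLR-AS1 circles are scattered over libraries.

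All 7 genes were called higher at untreated day 45 than at day 0 per sequenced read (edgeR), and so were 63.4% of the 4933 genes tested. The log2 change was above 0 for all 7 and for 4725 of the 4933, called or not. The median log2 change of the members was 3.21, against 2.81 for all genes, or 2.23 with genes lacking day 0 reads set at their lower bounds. The libraries of day 45 all lay above those of day 0 for 7 of 7 member genes, and for 63.8% of all genes. The shares of all genes include genes with fewer reads than the members, where a call or a full separation is harder to reach. Members and other genes were not matched by read number, so these shares do not show that the members rose more consistently. Per back-splice read, 1 of 7 was called, SEPTIN7-DT, against 6.14% of all genes called higher. The median was 0.75 on that scale, against 0.40 for all genes, or -0.32 with the bounds, and the libraries did not overlap for 3 of 7 genes (SEPTIN7-DT, UBA6-DT and DGCR5), against 23.8% of all.

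Of the 14 testable circles, 8 were called higher at untreated day 45 per sequenced read (edgeR), against 40.9% of 12498 circRNAs. The log2 change was above 0 for all 14 and for 11826 of the 12498. None was called per back-splice read (edgeR, against 1.65% called higher), with 2 at an unadjusted p under 0.05, against 12.7%. Those called per sequenced read were STX18-AS1 circle 1, both circles of RIPK2-DT, SEPTIN7-DT circle 1, VLDLR-AS1 circle 2, ZBED3-AS1 circle 1, UBA6-DT circle 2 and DGCR5 circle 1.

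**Figure D5:**
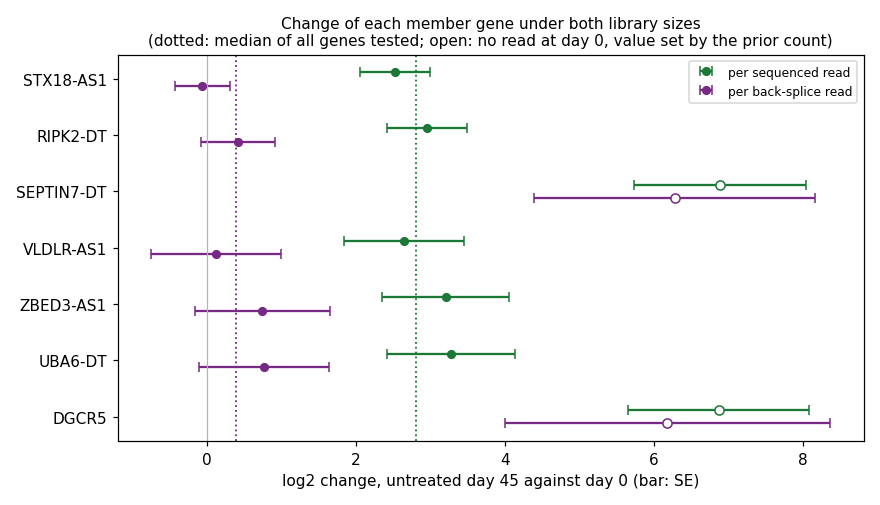
Log2 change of each member gene between day 0 and untreated day 45 on the horizontal axis, per sequenced read (green) and per back-splice read (purple), with SE bars and dotted lines at the medians of all genes tested. Open points mark SEPTIN7-DT and DGCR5, whose fitted values depend on the prior count because day 0 held no read, and 5 of 7 genes lie within 1 SE of 0 on the purple scale.

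The summed reads of the 7 genes were 10, 10 and 30 in the day 0 libraries and 147, 120 and 154 at untreated day 45. Their mean level per sequenced read was 8.91-fold higher at untreated day 45 and 7.65-fold higher over all later libraries, against 6.33 and 5.13 for all back-splice reads. Without day 0 replicate 3, whose level of 21.4 was above the 8.01 and 7.03 of the others, the values were 14.4 and 12.4. Compared between libraries of the same replicate number, which at these days share a sequencing quality group, the ratio was 16.6, 12.3 and 4.91, against 8.19, 6.11 and 4.76 for all back-splice reads. As a share of back-splice reads the sum was 1.47-fold higher at untreated day 45, and 2.02, 2.02 and 1.03 within replicate numbers. On that scale 1 of 3 day 45 libraries lay above all of day 0, so that the groups overlapped.

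Among the other lncRNA genes, 58 could be tested, and 19 were called higher and 2 lower at untreated day 45 per sequenced read. The 23 of them with -AS or -DT symbols gave 10 higher and 0 lower, with 11 at an unadjusted p under 0.05. Of all genes tested, 63.4% were called higher. The members ranked 3 to 11 of 276 lncRNA genes by reads. Most of the others held fewer reads, where a call is harder to reach, and the sets were not matched. Per back-splice read, 1 of the 58 was called higher and 3 were called lower, against 6.14% of all genes called higher. Of the 23 none was called on that scale (edgeR, 2 at an unadjusted p under 0.05). Of a list of 20 lncRNA genes known from neural or circRNA work, 16 gave no back-splice reads, MIR99AHG and LINC01122 gave 1 and 4, and 2 could be tested. RMST was higher by 5.78 on the log2 scale per sequenced read and by 3.27 per back-splice read, and FIRRE fell by 1.75 and by 4.24.

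At untreated day 90 all 7 genes were again called higher than at day 0 per sequenced read, against 45.3% of all genes. Of the 14 circles, 5 were called higher, against 21.7%. The log2 change was above 0 for 4433 of the 4933 genes. The share of all genes includes genes with fewer reads than the members, where a call is harder to reach. Log2 changes were 2.21 (SE 0.47) for STX18-AS1, 2.40 (SE 0.55) for RIPK2-DT, 2.41 (SE 0.82) for VLDLR-AS1, 2.93 (SE 0.86) for ZBED3-AS1 and 2.44 (SE 0.91) for UBA6-DT. SEPTIN7-DT was at least 9.78-fold and DGCR5 at least 4.73-fold higher, or at least 6.36-fold and 3.08-fold without 1 day 0 library (replicate 2, the lowest bounds). Without day 0 replicate 3 the log2 change was 4.35 for RIPK2-DT, and ZBED3-AS1 was at least 5.59-fold higher, against a ratio of 8.52 with all libraries. Without day 0 replicate 1 or 2, ZBED3-AS1 had a ratio of 5.91 or 5.54, and without untreated day 90 replicate 3 one of 5.88. Of these, UBA6-DT was not called without day 0 replicate 2 (adjusted p = 0.0556) or 3 (0.0502) or untreated day 90 replicate 3 (0.0584), nor VLDLR-AS1 without day 0 replicate 1 (0.067). Per back-splice read SEPTIN7-DT alone was called (1 of 7, adjusted p = 0.0171), against 6.71% of all genes called higher. This comparison shares its day 0 libraries with that of day 45.

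Between day 45 and day 90, no member gene was called (edgeR, 0 of 7, against 0.385% of all genes), with 1 at an unadjusted p under 0.05, against 14.3%. That gene was DGCR5, at 15 reads against 39 (ratio 0.354, counting interval 0.181 to 0.656), with a log2 change of -1.59 (SE 0.66, adjusted p = 0.282). Replicate 1 held 28 of the 39 reads at day 45, and the levels of the other day 45 libraries (4.34 and 3.41) lay on either side of some of those at day 90 (2.89 to 3.92). Log2 changes of the other 6 ran from -0.84 for UBA6-DT to -0.24 for VLDLR-AS1. The median was -0.56 for the 7 members and -0.64 for all genes, of which 824 of 4933 lay above 0. Per back-splice read the medians were 0.07 and -0.05, and the ratio of DGCR5 was 0.526. DESeq2's Wald test called none, and Fisher's exact test on summed reads, which leaves out the spread between replicates, called DGCR5 and RIPK2-DT. The ratio of RIPK2-DT was 0.674 per sequenced read, against 0.672 for all back-splice reads, and 1.0 per back-splice read. No circle was called (edgeR, 0 of 14, against 0.08% of all circRNAs), with 2 at an unadjusted p under 0.05, against 9.61%, and 2 by Fisher's exact test. The shares of all genes and circRNAs called by Fisher's exact test are not given here.

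IGF-1 gave no call for any member gene at day 45 or at day 90 (edgeR, 0 of 7 each, with 0 at an unadjusted p under 0.05), and none with DESeq2 or Fisher's exact test, against 0.0203% of all genes at either day. Log2 changes ran from -0.45 for DGCR5 and UBA6-DT to 0.69 for VLDLR-AS1 at day 45, and from -0.26 for ZBED3-AS1 to 0.50 for RIPK2-DT at day 90, with SEs of 0.40 to 0.72. Per sequenced read, ratios of summed reads had counting intervals that included 1 except for VLDLR-AS1 at day 45 (1.68, 1.01 to 2.86) and RIPK2-DT at day 90 (1.40, 1.03 to 1.91), whose libraries overlapped between treatments. For UBA6-DT at day 45 the interval was 0.408 to 1.32, so that changes of that size could not be detected at this depth. Per back-splice read the intervals excluded 1 for VLDLR-AS1 at day 45 (1.97, 1.18 to 3.35) and for STX18-AS1 at both days, in opposite directions (1.34, 1.07 to 1.68, at day 45 and 0.696, 0.536 to 0.901, at day 90). On that scale the RIPK2-DT libraries with IGF-1 at day 90 all lay above the untreated ones, but barely. The lowest with IGF-1 was 36.6 and the highest untreated 36.4 per 100000 back-splice reads. The share of all genes that separate in this way is not given here. The interval for the ratio was 0.882 to 1.64. These intervals leave out the spread between replicates, and edgeR called none of these genes on that scale. No circle was called at either day (edgeR, 0 of 14, against 0.016% and 0.008% of all circRNAs), with 1 at an unadjusted p under 0.05 at day 45, against 4.58%, and 0 at day 90, and none with DESeq2 or Fisher's exact test. The interaction test of the IGF-1 effects at day 45 and day 90 called no member gene per sequenced read (edgeR, 0 of 7, with 0 at an unadjusted p under 0.05), against 0.0% of all genes. Per back-splice read it called none either, with STX18-AS1 at a difference of 0.91 (SE 0.41, unadjusted p = 0.028, adjusted p = 1.0), where 3.55% of all genes had an unadjusted p under 0.05.

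Pearson correlations with STX18-AS1 over the 15 libraries were ranked among 1906 genes with at least 100 reads. They used levels per back-splice read (log2 of reads per 100000 plus 1). Among the highest were RNF138 (0.64), a ubiquitin ligase, MAP2K1 (0.64), a kinase of the MAP kinase cascade, SEPTIN2 (0.63), a septin, and SPECC1L (0.63). The other member genes that could be compared were less like it, from 0.07 for VLDLR-AS1 to 0.45 for ZBED3-AS1. These values describe libraries that share their depth and replicate groups. The highest of so many correlations over 15 libraries are picked values, and the level that unrelated genes would reach was not tested.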

How the data were processed

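Back-splice reads were measured in 15 ribodepleted, stranded RNA-seq libraries (100-base paired ends). The authors identified circRNAs with PTESFinder v1 on hg19 and GENCODE 19 (at least 8 bases covered on each side of the junction, identity of at least 0.85) and deposited raw read counts per circRNA and library. The submitters' processing notes also name TopHat2 2.0.10, HTSeq 0.6.1 and bedtools 2.17. That search was helped by known back-splice junctions, and a second one was run without annotation. The 16 amplicon samples were not used here.

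Circles were assigned to genes through their transcript names with GENCODE 44 lifted to GRCh37, and exon numbers are those of the transcript named. Counts of 12498 circRNAs and 4933 genes with at least 10 summed reads were fitted with edgeR 4.0.16 (quasi-likelihood test, all 15 libraries, a mean per condition, Benjamini-Hochberg adjusted p under 0.05) in R 4.3.3. Library sizes were the sequenced reads, as the study normalised its counts, or back-splice totals. The 2 read numbers listed for untreated day 90 replicates 1 and 2 could not be told apart, and their mean was used for both. Libraries named a, b and c were read as replicates 1, 2 and 3. Ratios of summed counts have exact 95% intervals for counting error only, as have the Wilson intervals, and where day 0 held no read 3 counts over the group were used as the limit. DESeq2 1.42.0 (Wald test), Fisher's exact test, other scalings and filters, and leaving out each library were the alternatives. The code was tested on simulated data.

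Same-numbered libraries deviated together most clearly between untreated and IGF-1 day 45, across 1906 genes, and there mainly for replicate 1. The r values were 0.36, 0.17 and 0.16, against -0.26 to 0.16 for different numbers, and a replicate block changed no member call there. Between untreated and IGF-1 day 90 they were 0.02, 0.14 and 0.03, against -0.11 to 0.09. All 7 genes, and every circle with at least 10 reads, are named. Of the 5 genes most like STX18-AS1, 4 are reported here. The member genes, the gene lists and the tests were chosen with earlier results of these data known.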

Additional observations from a re-analysis of the deposited data

How the results depend on the processing

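The scaling moved the results most. Between day 0 and day 45, 7 genes and 8 circles were called higher per sequenced read, against 2 and 2 with TMM factors, 2 and 2 with DESeq2 size factors, and 1 and 0 with back-splice totals. At day 90 the 7 genes and 5 circles became 1 and 2, 1 and 1, and 1 and 0. With back-splice totals, 6.14% of all genes and 1.65% of all circRNAs were called higher at day 45, and 6.71% of genes at day 90. The shares of all genes and circRNAs called under the other settings of this section are not given here. Their member counts can thus not be set against a background. Fisher's exact test called 2 genes and 2 circles between day 90 and day 45, where edgeR called 0. The summed ratios of 8.91 and 7.65 became 1.47 and 1.53 per back-splice read, and 12.6 and 10.5 without STX18-AS1. Leaving out 1 library gave 7.36 to 14.4 and 6.32 to 12.4.

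Per back-splice read at day 45, the 1 gene called (SEPTIN7-DT) became 2 with TMM factors, DESeq2 size factors, either sequencing quality term, no filter on low counts or the replicate block, and 0 to 2 when 1 library was left out. Same-numbered libraries of day 0 and day 45 did not deviate together (r = 0.02, -0.04 and -0.03), so that the numbers do not pair them. Under the replicate block DGCR5 was the gene added (adjusted p = 0.0398), and the block moved no other count of member calls by over 1.5 times.

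Directions turned only for values that did not pass the threshold after the change. STX18-AS1 was at -0.06 per back-splice read (its leading circle -0.07), but at 0.39 with TMM factors, 0.07 with DESeq2 size factors, 0.21 without day 0 replicate 3 and 0.11 without untreated day 45 replicate 1 (range over libraries left out -0.24 to 0.21). RIPK2-DT was at -0.01 without day 0 replicate 1 or 2 (range -0.01 to 2.39), and VLDLR-AS1 at -0.41 without day 0 replicate 1 and -0.04 without untreated day 45 replicate 3 (range -0.41 to 0.58). UBA6-DT circle 1 was at -0.56 with back-splice totals and -0.29 with DESeq2 size factors. The causes were not tested. With 10 to 30 summed reads of the 7 genes in a day 0 library, depth at day 0 limits every comparison with it. Fisher's exact test was not run for the interaction, and a filter at 50 reads left no value for the leading circles of VLDLR-AS1 and UBA6-DT.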
